A study of Mus musculus with 6 samples.

Results

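The Myc network is a family of transcription factors that share a basic helix-loop-helix leucine zipper domain and act in pairs around the partner proteins Max and Mlx. The 8 genes described here are the activators Myc, Mycn and Mycl, the Max-binding repressors Mxi1, Mxd3, Mxd4 and Mnt, and the second hub gene Mlx. They were taken by symbol from the 52535 genes listed in the authors' deposited table, and all 8 were found. No measured value entered the rule, but the factors were chosen with earlier results of these data known. All 8 had a mean normalized count of at least 10, the minimum for testing, as had 14284 genes in all.

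RNA sequencing measured polyadenylated RNA in the E14 line, which was derived from mouse embryos and keeps the traits of embryonic stem cells. The cells carrying an siRNA against Npm1 (3 samples, genotype label NPM1 knockdown) were set against cells carrying a control siRNA (3 samples, genotype label WT). Npm1 encodes nucleophosmin, which builds the outer, granular layer of the nucleolus, and the series title concerns that layer and repressive chromatin. Both groups were parental E14 cells grown in N2B27 medium with LIF and 2i, transfected with Lipofectamine RNAiMAX, and collected 3 days later. No label states that a group's samples were separate cultures, so every p given here rests on a spread between samples that may be technical.

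Myc, N-Myc and L-Myc pair with Max, bind the hexamer CACGTG, known as the E-box, and raise the transcription of genes for growth, ribosome production and metabolism. The Mxd proteins, Mxi1 and Mnt compete for Max and for the same hexamer, and they recruit the Sin3 corepressor with its histone deacetylases. Mlx is a second partner that pairs with the glucose-responsive factors Mlxip and Mlxipl and also with Mnt, Mxd1 and Mxd4. In embryonic stem cells Myc and Mycn support proliferation and self-renewal and can stand in for each other.

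The authors' deposited table gives for each gene a mean over the 6 libraries, a log2 fold change and a p. Those values were fine enough to reconstruct the whole reads behind each mean, for all 8 factors and for every other gene given here by library. The values per library below are these reads divided by the library's scaling factor, and are called normalized reads. The scaling factors lay between 0.923 and 1.06, and the mean normalized counts summed to 27631017 in the authors' deposited table. The libraries are numbered by falling scaling factor within each group, since their replicate numbers could not be recovered. In the authors' deposited table, Npm1 stood at 45.3% of control, a log2 fold change of -1.14 with a Benjamini-Hochberg adjusted p of 5.35e-49, so much of its transcript remained. All 7 embryonic stem cell markers were tested, with means between 3740 and 23793 in the authors' deposited table, and none was called. In bulk RNA, fewer cells of a type and less RNA per cell cannot be told apart.

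A gene was called higher or lower when the authors' p, adjusted over all 14284 tested genes, was under 0.05. Of the 8 factors, 1 (Mnt) was called higher, 0 were called lower and 7 were not called. Over all tested genes 614 (4.3%) were called, 318 (2.23%) higher and 296 (2.07%) lower, so the 1 call is read as that of a gene and not as a property of the set. At an unadjusted p under 0.05 there were 2 factors, Mnt and Mxd3, beside 2323 tested genes (16.3%). The libraries of the groups did not overlap for 2 factors, again Mnt and Mxd3. The share of all tested genes whose groups did not overlap was not computed. For 3 libraries against 3, an exact permutation test cannot give such a separation a two-sided p below 0.1. The fold change was positive for 6 factors and negative for 2, with Mycl turning to a log2 value of -0.01 once a trend with transcript length and GC content was removed. The median log2 fold change was 0.10 for the 8 factors and 0.00192 for all tested genes.

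**Figure D1:**
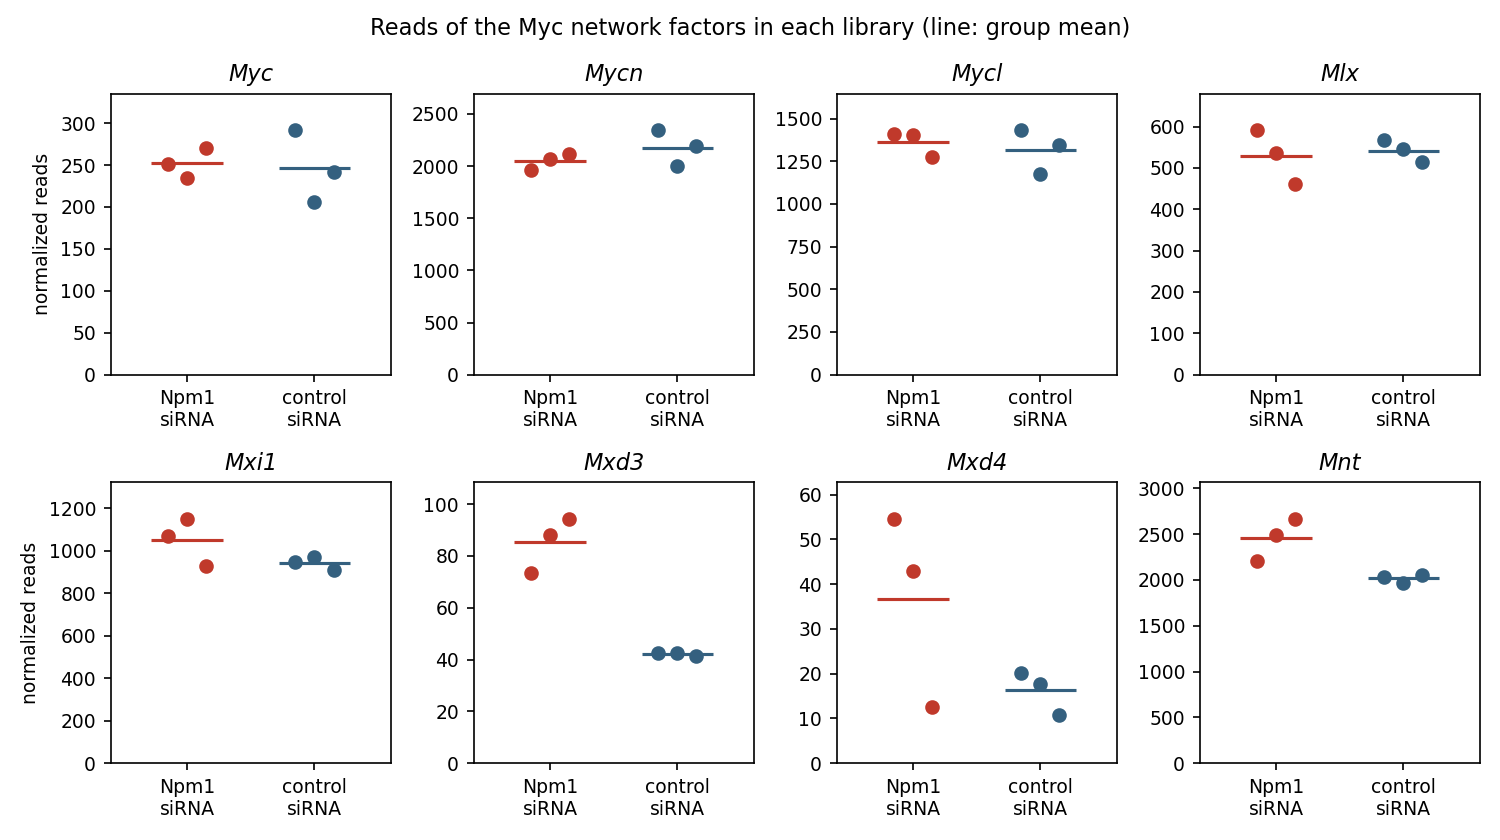
Normalized reads (y axis, from 0) of each of the 8 factors in the 3 Npm1 siRNA libraries (red, left) and the 3 control siRNA libraries (blue, right), with a line at each group's mean. The groups are apart for Mxd3 (73.4 to 94.3 against 41.2 to 42.5) and Mnt (2206 to 2669 against 1972 to 2055) and overlap for the other 6 factors. The share of all tested genes whose groups are apart was not computed.

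Per kilobase of transcript, the activators carried most of the network's transcript among these 8 genes, and none of the 3 was called. Mycn encodes N-Myc, the activator prominent in embryonic and neural progenitor cells, and lies at chr12:12936093-12941914 on the minus strand of GRCm38. It had 1966, 2066 and 2114 normalized reads in the Npm1 siRNA libraries, against 2344, 1999.7 and 2188 in the control siRNA libraries. The first Npm1 siRNA library lay below every control library and the other two lay within the control range, so the groups overlapped. The log2 fold change of Mycn in the authors' deposited table was -0.09, with an implied 95% interval of -0.25 to 0.07 and a Benjamini-Hochberg adjusted p of 0.681. As a fold, that interval runs between 0.841 and 1.05 of the control level.

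Mycl encodes L-Myc, the third activator of the family, and lies at chr4:122995652-123002485 on the plus strand. It had 1409, 1402 and 1277 normalized reads in the Npm1 siRNA libraries, against 1432, 1174 and 1346 in the control siRNA libraries. The control libraries spanned the Npm1 siRNA libraries on both sides. In the authors' deposited table its log2 fold change was 0.05 (implied interval -0.15 to 0.24, Benjamini-Hochberg adjusted p 0.886).

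Myc encodes c-Myc, a short-lived protein whose transcript is kept low in 2i medium, and lies at chr15:61985391-61990374 on the plus strand. It had 251, 235 and 270.5 normalized reads in the Npm1 siRNA libraries, against 292, 206 and 242 in the control siRNA libraries. The control libraries again reached both above and below the Npm1 siRNA libraries. Its log2 fold change in the authors' deposited table was 0.03, with an implied interval of -0.34 to 0.41 and a Benjamini-Hochberg adjusted p of 0.968. Leaving out 1 library at a time moved the log2 ratio of group means of Myc between -0.08 and 0.17, so its sign rests on single libraries. The nearest tested gene on the higher-coordinate side of Myc is Pvt1, a long noncoding RNA gene whose locus is known to act on Myc transcription. Pvt1 starts 47612 bases away and is named after its values were seen. It had 178, 128 and 176 normalized reads in the Npm1 siRNA libraries, against 196, 209 and 204 in the control siRNA libraries. The Pvt1 groups did not overlap, but its log2 fold change of -0.34 in the authors' deposited table had an adjusted p of 0.469.

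Set side by side per kilobase of the longest transcript, the activators stood in similar proportions in both groups. Mycn made up 59.0%, 60.7% and 62.2% of the summed Mycn, Mycl and Myc level in the Npm1 siRNA libraries, against 62.2%, 63.9% and 62.7% in the control siRNA libraries. Mycl made up 32.3%, 31.4% and 28.7% in the Npm1 siRNA libraries, against 29.0%, 28.6% and 29.4% in the control siRNA libraries. Myc was the smallest share throughout, 8.63%, 7.89% and 9.10% in the Npm1 siRNA libraries, against 8.84%, 7.51% and 7.91% in the control siRNA libraries. The ranges of the groups overlapped for each of the 3 shares, though for Mycn only at their edge.

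The highest fold changes among the 8 factors belonged to repressors. Mnt, the most widely expressed Max-binding repressor and a direct competitor of Myc, was the 1 factor that rose past the threshold. It lies at chr11:74830920-74845725 on the plus strand. It had 2206, 2489.8 and 2669 normalized reads in the Npm1 siRNA libraries, against 2036, 1972 and 2055 in the control siRNA libraries. All 3 Npm1 siRNA libraries lay above all 3 control libraries, and the Npm1 siRNA libraries were the more spread. The log2 fold change of Mnt in the authors' deposited table was 0.28, a 1.21-fold rise with an implied interval of 1.08 to 1.36 and a Benjamini-Hochberg adjusted p of 0.0266. Leaving out 1 library at a time gave log2 ratios between 0.22 and 0.35. Over all tested genes, 1782 (12.5%) had a log2 fold change at least as high. Among the 888 genes with a mean within 1.2 times that of Mnt, 3.38% had one at least as high, 7.21% were called and the median standard error was 0.08. The Mnt call was lost once a trend of fold change with length and GC content had been removed (log2 0.14, adjusted p 0.439), and its longest transcript has a GC content of 59.5%. It was also lost with Benjamini-Yekutieli adjustment (adjusted p 0.270) and in a test against a fold of 1.2 (adjusted p 1).

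Mxd3, a Max-binding repressor expressed in dividing progenitors, was higher in every Npm1 siRNA library but missed the threshold. It lies at chr13:55325168-55329823 on the minus strand. It had 73.4, 87.9 and 94.3 normalized reads in the Npm1 siRNA libraries (78, 92 and 90 reads), against 42.3, 42.5 and 41.2 in the control siRNA libraries (44, 43 and 38 reads). The lowest Npm1 siRNA library stood well above the highest control library, and the control libraries were nearly equal. In the authors' deposited table the log2 fold change of Mxd3 was 1.02, 2.03-fold with an implied interval of 1.27 to 3.24, and its Benjamini-Hochberg adjusted p was 0.0625. Leaving out 1 library at a time kept the log2 ratio between 0.94 and 1.12. The adjusted p lay between 0.0514 and 1 over the other ways of filtering, adjusting and testing, so Mxd3 was called under none of them. Few genes had as high a value: 144 tested genes (1.01%) had a log2 fold change at least as high. Among the 605 genes with a mean within 1.2 times that of Mxd3, 1.32% had one at least as high, 1.65% were called in either direction, and the median standard error was 0.37. Its exons share 105 bases (4.43%) with Prelid1 on the other strand. Prelid1, a mitochondrial lipid transfer gene, had a mean of 5020 and a log2 fold change of 0.06 in the authors' deposited table. The kit marks strand, but whether the counting used it is not given in the sources used here.

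Mxd4, a Max-binding repressor that in mouse accompanies differentiation, had the highest fold change of the 8 and the fewest reads. It lies at chr5:34173883-34187720 on the minus strand. It had 54.6, 43.0 and 12.6 normalized reads in the Npm1 siRNA libraries (58, 45 and 12 reads), against 20.2, 17.8 and 10.8 in the control siRNA libraries (21, 18 and 10 reads). The first and the second Npm1 siRNA library were higher than any control library, while the third lay within the control range. The log2 fold change of Mxd4 in the authors' deposited table was 1.17, 2.26-fold with an implied interval of 0.96 to 5.27 and a Benjamini-Hochberg adjusted p of 0.337. Without 1 library the ratio of group means ran between 1.71 and 3.00, the widest range of the 8 factors. At this depth few genes could be called: of the 629 genes with a mean within 1.2 times that of Mxd4, 0.477% were called, and their median standard error was 0.57. Its exons share 514 bases (6.06%) with Gm42846, a predicted gene on the other strand that was not tested.

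Mxi1, also called Mxd2, is a repressor induced in differentiating cells and lies at chr19:53310518-53375810 on the plus strand. It had 1069, 1150.3 and 928 normalized reads in the Npm1 siRNA libraries, against 948, 968 and 909 in the control siRNA libraries. The third Npm1 siRNA library lay inside the control range and the other two above it. Its log2 fold change in the authors' deposited table was 0.16, with an implied interval of -0.05 to 0.37 and a Benjamini-Hochberg adjusted p of 0.518.

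**Figure D2:**
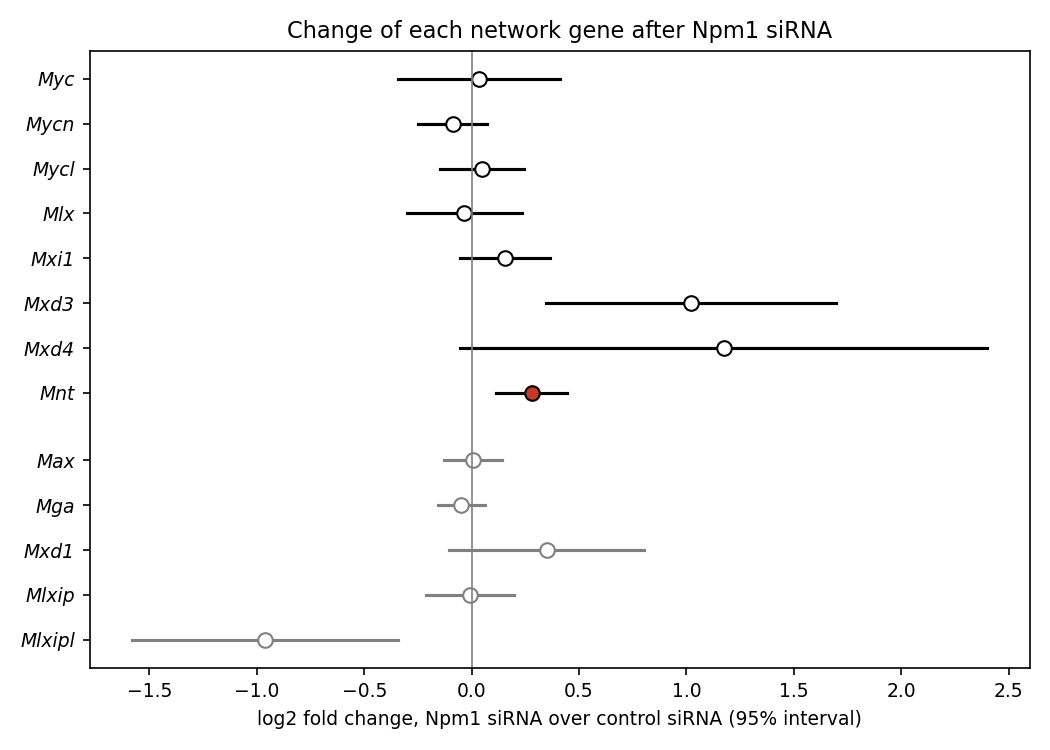
Log2 fold change of Npm1 siRNA over control siRNA (x axis) with its implied 95% interval for the 8 factors (black, upper rows) and for 5 further genes of the Max and Mlx network (grey, lower rows). The filled point is Mnt at 0.28, the called gene. Mxd3 at 1.02 and Mlxipl at -0.96 have intervals that leave out 0 but were not called, and the interval of Mxd4 at 1.17 is the widest.

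The balance of the network was described by summing levels per kilobase within each library. The 4 repressors reached 0.600, 0.652 and 0.647 of the summed activator level in the Npm1 siRNA libraries, against 0.468, 0.555 and 0.501 in the control siRNA libraries. The lowest Npm1 siRNA library was above the highest control library. Mnt supplied 64.4% to 70.7% of the repressor sum in the Npm1 siRNA libraries and 66.1% to 68.4% in the control siRNA libraries. With Mnt left out, Mxi1, Mxd3 and Mxd4 together reached 0.214, 0.226 and 0.190 of the activator level in the Npm1 siRNA libraries, against 0.154, 0.188 and 0.158 in the control siRNA libraries. These groups also did not overlap, by a narrow margin between 0.190 and 0.188. The sums leave out Mxd1 and the Max partner Mga, which stood at 34.9 and 1050 per kilobase pooled over the 6 libraries. Most of the repressor sum is Mnt, whose log2 value fell to 0.14 with a length and GC trend removed. The ratios are sums over chosen genes and were not tested. An exact permutation test of 3 libraries against 3 cannot give a two-sided p below 0.1.

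Mlx, the hub for the glucose-responsive branch, lies at chr11:101087277-101092207 on the plus strand and was not called. It had 591, 535 and 461 normalized reads in the Npm1 siRNA libraries, against 567, 545 and 514 in the control siRNA libraries. The Npm1 siRNA libraries reached both above and below the control range. In the authors' deposited table Mlx had a log2 fold change of -0.03, with an implied interval of -0.30 to 0.23 and a Benjamini-Hochberg adjusted p of 0.948. Its exons share 385 bases (19.3%) with Psmc3ip, a recombination gene on the other strand. Psmc3ip had a mean of 508 and a log2 fold change of -0.17 in the authors' deposited table, and without strand in the counting its reads could not be told apart from those of Mlx there.

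Levels can be ranked between genes only per length, here as normalized reads per kilobase of the longest transcript in GENCODE M21. Pooled over the 6 libraries, the order of levels was Mycn at 790.2, Mnt at 488, Mycl at 383, Mlx at 273, Mxi1 at 198, Myc at 107, Mxd3 at 36.5 and Mxd4 at 5.73. Among the tested genes with a length, Mycn stood at the 84.2 percentile, Myc at 44.5 and Mxd4 at 5.88. Between neighbours in this order, the ranges of the libraries did not overlap within either group. The closest neighbours were Mlx and Mxi1 in the Npm1 siRNA libraries, where Mlx reached down to 235 and Mxi1 up to 228. The order held with the length of all exons merged, which gave Mycn 641 and Mxd4 3.12.

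**Figure D3:**
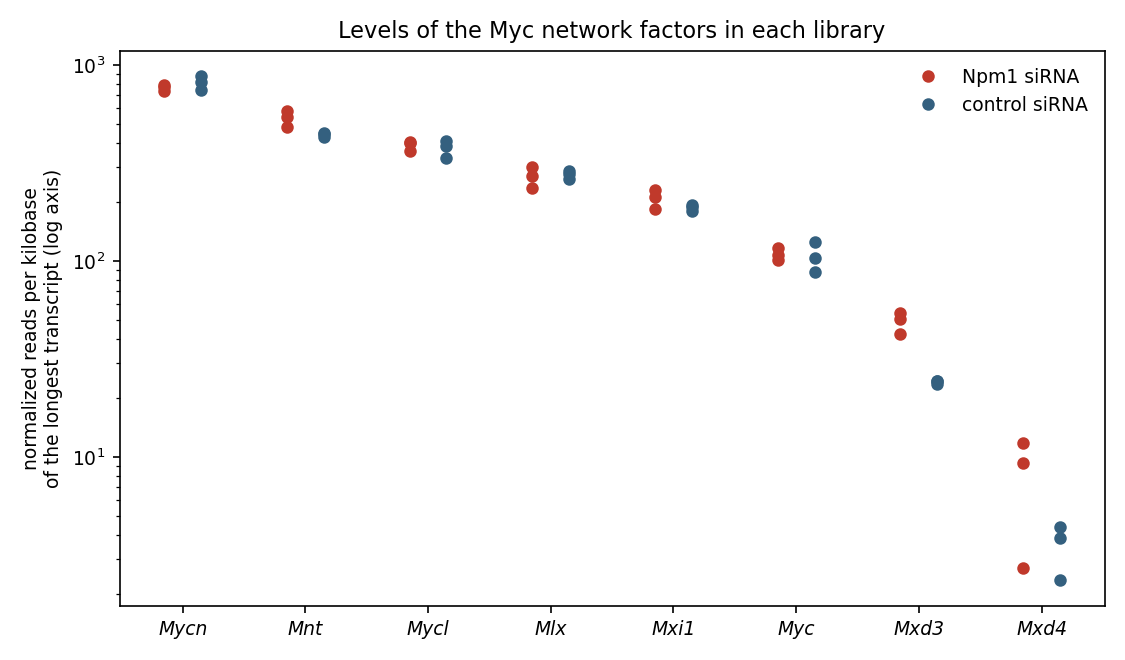
Normalized reads per kilobase of the longest transcript (y axis, log scale) for the 8 factors in falling order, with 1 point per library for Npm1 siRNA (red, left) and control siRNA (blue, right). The levels run from 735 to 791 for Mycn down to 2.72 to 11.8 for Mxd4 in the Npm1 siRNA libraries, and from 748 to 877 down to 2.34 to 4.37 in the control siRNA libraries.

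The promoters of these genes could hold the hexamer that the network itself binds. RefSeq windows on GRCm38.p6, from 250 bases before to 50 after a gene's start, were at hand for 7 of the 8 factors. CACGTG reads the same on both strands, so 1 search covers both, and it was present in 7.15% of all 32851 windows of this length. Counted by gene, 8.09% of the 27025 symbols with a window held it in at least 1 window. It was found in the windows of Mnt, Mxd4 and Mlx, and not in those of Mycn, Mycl, Mxd3 and Mxi1, which has 3 windows. A match describes the letters only. The 250 bases before the start are printed for Mnt and Mxd3, the factors whose groups did not overlap, 5′ to 3′ on the gene's strand, with CACGTG in capitals where it occurs. For Mnt they are chr11:74830674-74830923 (plus strand), with the hexamer beginning 123 bases before the start. For Mxd3 they are chr13:55329732-55329981 (minus strand), without the hexamer. The starts used here are those of RefSeq, and the Mxd3 gene as placed above begins inside these bases, at 55329823. The Mycl window, chr4:122995681-122995980, lies wholly inside the Mycl gene as placed above, which begins at 122995652. Bases before that Mycl start were not searched.
Mnt: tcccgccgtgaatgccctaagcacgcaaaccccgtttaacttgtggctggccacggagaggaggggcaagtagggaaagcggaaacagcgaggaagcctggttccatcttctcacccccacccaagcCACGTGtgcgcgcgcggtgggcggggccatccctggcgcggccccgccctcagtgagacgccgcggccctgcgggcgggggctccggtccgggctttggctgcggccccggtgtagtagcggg
Mxd3: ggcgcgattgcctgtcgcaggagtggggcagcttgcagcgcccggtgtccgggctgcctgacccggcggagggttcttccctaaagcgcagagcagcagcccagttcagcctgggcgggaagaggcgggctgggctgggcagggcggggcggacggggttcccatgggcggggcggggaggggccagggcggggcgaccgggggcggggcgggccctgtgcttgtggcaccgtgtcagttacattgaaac
The hexamer begins 219 bases before the start in Mxd4 and 40 bases before it in Mlx, and is shown with 12 bases on either side to compare with that of Mnt.
Mnt site: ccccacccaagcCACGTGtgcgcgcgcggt
Mxd4 site: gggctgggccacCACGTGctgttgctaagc
Mlx site: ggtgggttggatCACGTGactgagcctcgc
The presence of CACGTG did not separate the factors by direction: in the authors' deposited table its holders stood at 0.28, 1.17 and -0.03 on the log2 scale, and the 4 without it between -0.09 and 1.02.

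Around the 8 factors, 5 further genes of the Max and Mlx network were measured, and none was called. Max is the obligate partner of the activators and a partner of the repressors. It had 3639, 3324 and 3547 normalized reads in the Npm1 siRNA libraries, against 3374, 3661 and 3439.7 in the control siRNA libraries. Its groups overlapped, with a log2 fold change of 0.00 in the authors' deposited table and an adjusted p of 0.990. Mga, a Max partner with a second DNA-binding domain, had a mean of 14625 and a log2 fold change of -0.05 in the authors' deposited table, with an adjusted p of 0.769. The other 3 lay outside the rule for named genes and are given because the set is small. Mxd1, the founding repressor of the Mxd family, had 144, 192 and 212 normalized reads in the Npm1 siRNA libraries, against 149, 134 and 146 in the control siRNA libraries, which overlapped (adjusted p 0.495). Mlxip, a glucose-responsive partner of Mlx also called MondoA, overlapped as well, with a log2 fold change of -0.01 in the authors' deposited table.

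Mlxipl, the partner of Mlx known as ChREBP in liver, came close to the threshold without passing it. It had 49.0, 73.6 and 96.4 normalized reads in the Npm1 siRNA libraries, against 107, 145 and 173 in the control siRNA libraries. No Npm1 siRNA library reached the lowest control library. Its log2 fold change in the authors' deposited table was -0.96, which is 51.4% of control, with a Benjamini-Hochberg adjusted p of 0.0531. It passed with a minimum mean of 50 (adjusted p 0.0437) and once the length and GC trend had been removed (log2 -1.03, adjusted p 0.0365). Of 5 genes known to respond to Mlx with Mlxip or Mlxipl, 4 were tested and none was called. Of the 4, 2 had an unadjusted p under 0.05, beside 16.3% of all tested genes. The highest mean counts of the list were those of Txnip, an inhibitor of glucose uptake, and Klf10, a transcription factor. In the authors' deposited table Txnip had a log2 fold change of 0.14 and Klf10 one of 0.19, with adjusted p of 0.304 and 0.191.

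The protein partners of Myc and the corepressor of the Mxd proteins showed 1 call between them. Of 20 genes for cofactors and modifiers of Myc, 19 were tested, with a list median of 0.03. An unadjusted p under 0.05 was reached by 5 of the 19, beside 16.3% of all tested genes. Of the 19, 1 (5.26%) was called higher, near the 4.3% of all tested genes called in either direction. That gene was Hcfc1, a chromatin cofactor that binds Myc, with a log2 fold change of 0.20 in the authors' deposited table and an adjusted p of 0.0307. The Hcfc1 call was lost with no minimum mean (adjusted p 0.0539) and with the length and GC trend removed (log2 0.12, adjusted p 0.356). Of 11 Sin3 corepressor genes, all were tested and none was called in either direction, with 0 at an unadjusted p under 0.05. Sin3a, its scaffold, and Hdac2, a deacetylase, had the highest mean counts of the list, not corrected for length, and the authors' deposited table gives them log2 values of 0.00 and 0.05.

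Of 15 regulators of Myc transcription, all tested, 2 were called higher, 1 was called lower and 12 were not called, with a list median of -0.01. The called share of all tested genes was 4.3%. An unadjusted p under 0.05 was reached by 3 of the 15, beside 16.3% of all tested genes. Tcf7l1, which represses Wnt target genes in embryonic stem cells, rose, with a log2 value of 0.24 in the authors' deposited table (adjusted p 0.0170). With the length and GC trend removed, Tcf7l1 was no longer called (log2 0.13, adjusted p 0.362). Fubp1, which binds a far upstream element of Myc, fell, with a log2 value of -0.20 in the authors' deposited table (adjusted p 0.0126). None of these calls came with a called change of Myc itself.

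Of 55 genes that Myc is known to activate, all were tested, 1 was called higher and 2 lower. That is 5.45% of the list, near the 4.3% of all tested genes. An unadjusted p under 0.05 was reached by 11 of the 55, beside 16.3% of all tested genes. Of the 55, 23 had a positive and 32 a negative fold change, and the list median was -0.03 beside 0.00192 over all tested genes. Tert, the catalytic subunit of telomerase, was the gene that rose. It had 894, 901 and 861 normalized reads in the Npm1 siRNA libraries, against 651, 666 and 728 in the control siRNA libraries. Its groups did not overlap, and the log2 fold change in the authors' deposited table was 0.38 with an adjusted p of 0.0167. Tert was named because it was called, so the lack of overlap is not independent support. Ldha, the lactate dehydrogenase of glycolysis, fell, with a log2 value of -0.24 in the authors' deposited table (adjusted p 0.0360). Cct3, a chaperonin subunit, fell, with a log2 value of -0.20 in the authors' deposited table (adjusted p 0.0336). Neither was called with the length and GC trend removed, at log2 values of -0.21 for Ldha (adjusted p 0.0952) and -0.17 for Cct3 (adjusted p 0.0912), nor with no minimum mean (adjusted p 0.0631 and 0.0589).

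Of 15 genes that Myc is known to repress, 14 were tested, 1 was higher and 0 were lower, with a list median of 0.12. The called share was 7.14% of those tested, beside 4.3% of all tested genes. An unadjusted p under 0.05 was reached by 2 of the 14, beside 16.3% of all tested genes. The gene that rose was Ndrg1, a differentiation and stress gene. It had 558, 498 and 544 normalized reads in the Npm1 siRNA libraries, against 435, 334 and 359 in the control siRNA libraries. Its groups did not overlap, and the log2 fold change in the authors' deposited table was 0.50 with an adjusted p of 0.0217. Ndrg1 too was named because it was called, so the lack of overlap is not independent support. The cell cycle inhibitors of the list were not called. The 16 nearest tested neighbours of the 8 factors were not called either, with a median of -0.03. Of the 16, 3 had an unadjusted p under 0.05, beside 16.3% of all tested genes.

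**Figure D4:**
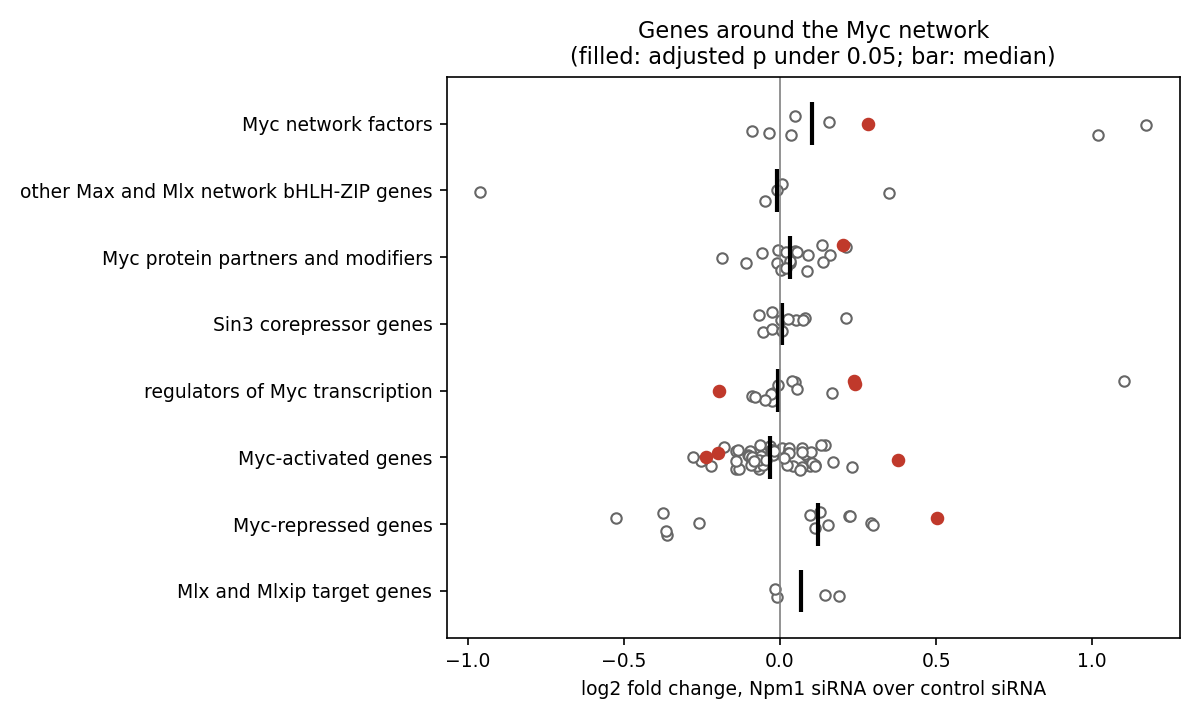
Log2 fold change of Npm1 siRNA over control siRNA (x axis) for the tested genes of each list, with a bar at each list's median. Filled points are genes with an adjusted p under 0.05. The called genes lie between -0.24 for Ldha and 0.50 for Ndrg1, and all list medians lie between -0.03 and 0.12.

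Markers of other cell types were summed in each library to show what moved alongside these genes. The 7 fibroblast markers summed to 63.9 to 94.2 normalized reads in the Npm1 siRNA libraries and 60.7 to 139.6 in the control siRNA libraries, with Dcn listed at 0. The 6 primitive endoderm markers summed to 85.7 to 95.5 in the Npm1 siRNA libraries and 82.0 to 109.7 in the control siRNA libraries. Among them Gata4 was higher in every Npm1 siRNA library (37.7, 41.1 and 41.9 against 31.8, 34.6 and 19.5). So was Foxa2, which has few reads (3.77, 4.78 and 5.24 against 0 in each control siRNA library). Gata6, Sox17, Sox7 and Dab2 overlapped between the groups, and none of the 3 tested endoderm markers was called. The 5 trophectoderm markers summed to 652 to 867 in the Npm1 siRNA libraries and 627 to 650.1 in the control siRNA libraries, with none of 4 tested called. The 4 neuroectoderm markers summed to 2197 to 2515 in the Npm1 siRNA libraries and 2069.9 to 2186 in the control siRNA libraries. Of the 3 tested, Sox1, an early neural factor, rose by a log2 fold change of 1.26 in the authors' deposited table, with an adjusted p of 0.0159. The trophectoderm and neuroectoderm sums were therefore higher in all 3 Npm1 siRNA libraries, as were Mnt and Mxd3. The margins were narrow, at 652 against 650.1 and 2197 against 2186. Pax6, a neuroectoderm marker with few reads, was lower in every Npm1 siRNA library (3.77, 10.5 and 7.34 against 16.4, 10.9 and 10.8). Nes, Tubb3 and every trophectoderm marker overlapped between the groups. The part of these cell types in the results for Mnt and Mxd3 was not tested.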

How the data were processed

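Polyadenylated RNA of 6 samples was sequenced. FastQC, Trimmomatic 0.36, STAR, DESeq2 and the build GRCm38 (mm10) are named in the submitters' processing notes. Not given in the sources used here are the counting step, its use of strand and the annotation.

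The authors' deposited table holds a signal (the mean normalized count over all 6 libraries), a log2 fold change and a p-value per gene, per the file headers. The header gives no direction. Since the silenced Npm1 is negative, a positive value was taken to mean higher after Npm1 siRNA. Benjamini-Hochberg adjustment covered the p-values of all 14284 genes whose mean was at least 10. Standard errors are each log2 fold change over the normal quantile of its p, so intervals rest on that quantile.

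Reads per library were reconstructed. The means under 0.19, of 1314 genes, took 6 values, each the worth of 1 read in 1 library, 3 with positive and 3 with negative fold change, which gave the scaling factors. For a gene, the sets of 6 whole numbers that match the deposited mean within a relative 4e-15 were listed. The search kept to limits around the group levels that the mean and fold change imply. The set that also gave the deposited log2 fold change within 1e-06, at least 100 times closer than the next, was kept. For cell type markers with low means, the only set that matched the mean was kept, without use of the fold change. The steps were tested on simulated data. Depth is otherwise unknown. GENCODE M21 matched 97.4% of tested genes.

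Named genes were Npm1, the 8 factors, and in each list the called genes (at most 4) or else the 2 with the highest mean. One called gene among the regulators of Myc transcription is not reported here by name. The factors and lists were chosen with earlier results of these data known. Computation used Python 3.11.15, NumPy 2.4.6, SciPy 1.17.1 and pandas 2.3.3. Alternatives were other minimum means, Benjamini-Yekutieli adjustment, recentring on the median, a length and GC trend, a test against a fold of 1.2 and leaving out each library.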

Additional observations from a re-analysis of the deposited data

How the results depend on the processing

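The 6 alternatives to filtering, adjustment, centring and testing reversed no fold change past the threshold. The count of factors called higher, 1, became 0 with Benjamini-Yekutieli adjustment, with the length and GC trend removed and in the test against a fold of 1.2. Over all genes, 318 higher calls became 121, 206 and 6 under those settings, and 296 lower calls became 109 with Benjamini-Yekutieli adjustment and 11 in the fold test. The trend ran between -0.17 and 0.50 on the log2 scale, and the share of calls that were higher was 42.0% after it and 51.8% before. The 5 further network genes went to 1 call, Mlxipl, with a minimum mean of 50 and after the trend. The 1 call among Myc partners became 0 with no minimum mean, Benjamini-Yekutieli adjustment, the trend and the fold test. The 3 calls among regulators of Myc became 1 with Benjamini-Yekutieli adjustment and 0 in the fold test. The 3 calls among Myc-activated genes became 1 with no minimum mean, and 0 with Benjamini-Yekutieli adjustment and in the fold test, as did the 1 call among Myc-repressed genes. With the trend removed, Tert was still called, while Hcfc1, Tcf7l1, Ldha and Cct3 were not. The Myc-activated list then held 2 calls, Tert and a gene not called before. The cause was not tested for the changes under the trend. Mycl, never called, went to -0.01 after the trend. No paired analysis was possible because the reconstructed libraries carry no replicate number. Leaving out each library was chosen after seeing the data and could be run as a ratio for single genes, not as a refit over all genes. A planned comparison of genes with CACGTG promoters was not made, since 71.6% of tested genes have a promoter window, under the 80% needed.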
